A study of Mus musculus with 2 samples.

Results

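Collagen genes were followed across the cell classes of the mouse uterus and between 2 genotypes. All genes whose symbol is Col, a number, a and a second number were taken, which gave 44 of the 32285 genes listed in the deposited tables. They were grouped by the kind of structure their proteins build. The fibrillar group held 11 genes, the basement membrane group 8 (types IV, XV and XVIII), the beaded filament group of type VI 6 and the fibril-associated group 9. A further 4 genes encode transmembrane collagens and 3 encode short-chain network collagens, and the last 3 (Col7a1, Col26a1 and Col28a1) belong to none of these. In each library 43 of the 44 genes had at least 1 unique molecular identifier (UMI, a tag that marks 1 captured transcript) in a cell: Col22a1 had 0 UMIs in the control and Col9a1 had 0 in the other library.

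The whole uterus of females 6 months old was digested with collagenase for 5 hours and profiled by droplet-based sequencing of transcript 3-prime ends. The control library, titled Prickle1 f/f, came from mice with floxed alleles of Prickle1, which encodes a planar cell polarity protein. The conditional knockout library (cKO), titled Prickle1 f/f Ltf-cre, came from mice that carried the same floxed alleles and in addition a Cre recombinase, Ltf-iCre, made from the lactoferrin locus. Lactoferrin is made by the uterine epithelium, so the stromal and muscle cells below are not the cells at which the deletion is aimed. Tissue of 3 mice was pooled for each library and there was 1 library per genotype. No difference below could be checked between mice, no p-value is given, and every interval covers counting error only. Genotype, animals and library preparation cannot be told apart. A separate genotype entry calls both samples C57BL/6J wild-type, which differs from the titles that were used here.

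Collagens are secreted as helices of 3 chains. Fibrillar types I, III and V form the cables that bear tension in the endometrial stroma and the muscle wall. Type IV forms the sheet-like network of the basement membrane under epithelia and around vessels and muscle cells, and types XV and XVIII are proteoglycans found in or beside that sheet. Type VI forms beaded filaments close to the cell surface and links basement membranes to the fibrils around them. Types XII, XIV and XVI attach to the surface of fibrils. In the uterus the fibrillar and basement membrane collagens are remodelled through the oestrous cycle, in pregnancy and at decidualisation.

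In all 45035801 UMIs were counted in control and 57145553 in cKO. Barcodes counted as cells if they had 500 genes or more and no more than 20% mitochondrial UMIs: 3653 in control (median 4650 UMIs) and 4950 in cKO (median 5944 UMIs), and 5 cell barcodes occurred in both libraries. Prickle1 had 12 UMIs in the 921 control cells of the epithelial gate and 4 UMIs in the 59 cKO cells (0.739 and 1.92 CPM), and 100 and 436 UMIs over all cells (2.65 and 8.24 CPM). It was thus not lower per UMI in cKO in either count. Since only transcript ends were read, a deleted exon within the gene would not be seen, and this gene does not check the titles. Collagen genes gave 98460 of the UMIs in control cells and 473690 of those in cKO cells.

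Cells were put in a class when they carried at least 1 UMI of 1 gate gene and none of the other 4. The gates were Epcam (epithelium, 921 control and 59 cKO cells), Pdgfra (stroma, 608 and 1409), Actg2 (smooth muscle, 291 and 501), Msln (mesothelium, 25 and 32) and Ptprc (immune cells, 665 and 1527). No gate gene was seen in 928 and 1022 cells, and 215 and 400 cells carried more than 1. Median depth was 11610.5 UMIs in the control and 15533 in the cKO Pdgfra class, 6058 and 15778 in the Epcam class, 1499 and 1495 in the Actg2 class, 4392 and 6865.5 in the Msln class, and 6014 and 5330 in the Ptprc class. Beside the gate genes, 7 further epithelial markers summed to 11997 and 11092 CPM in the Epcam class (a gene's UMIs as counts per 1000000 UMIs of the class), and 7 further muscle markers to 12473 and 12518 CPM in the Actg2 class. The 5 further mesothelial markers were all present in the Msln class (1757 and 2650 CPM summed), but 6 stromal markers other than Pdgfra and Col1a1, led by Dcn, summed to 10447 and 13946 CPM, above the 9129 and 7167 CPM of the Pdgfra class. It is therefore named by its gate gene here. In the Pdgfra class the 7 epithelial markers summed to 33.8 and 10.6 CPM, 7 immune markers to 10.2 and 13.5 CPM, 5 lymphatic endothelial markers to 178 and 24.7 CPM and the 7 muscle markers to 695 and 753 CPM, in control and cKO respectively. Of these, 1 immune marker was at 0 in control. The part of such cells in the results below was not tested. A UMI marks 1 captured transcript end, so levels were not divided by gene length.

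The Pdgfra class was the main source of collagen transcripts. All members together made 8348 CPM there in control and 15097 CPM in cKO. The Actg2 class had 2601 and 2741 CPM, the Msln class 2111 and 4366 CPM, the Epcam class 130 and 386 CPM and the Ptprc class 66.8 and 151 CPM. Cells without a gate gene, which are a mixture, had 4200 and 4761 CPM, above every gated class but Pdgfra. Stromal cells thus held over 3 times the collagen level of the next gated class in each library, but less above the cells without a gate gene. RNA in cell-free barcodes (at most 100 UMIs) contained 1408 CPM of collagen transcripts in control and 5131 CPM in cKO. From that profile, cell-free RNA alone was estimated to give 63.7 and 126 CPM in the Ptprc class and 36.9 and 170 CPM in the Epcam class, close to the whole immune level but below the epithelial one. In the Pdgfra class the same estimate was 29.6 and 158 CPM, a small part of the level measured.

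Of the 32 members with at least 20 UMIs over the 5 classes in each library, 19 were highest in the Pdgfra class in both libraries, against 8.57% of the 13855 genes tested in the same way. None was highest in the Epcam, Actg2 or Ptprc class in both libraries, against 8.57%, 8.0% and 18.7% of all genes. A group of 6 was highest in the Msln class in both libraries, 13.2% being the share of all genes: Col4a4, Col4a5, Col8a2, Col16a1, Col18a1 and Col23a1. For the last 7 the highest class differed between the libraries, as it did for 43.0% of all genes. The Msln class rests on 25 and 32 cells, and the 6 members had between 1 and 39 UMIs there in each library. Col8a2, which encodes a chain of the short-chain network collagen VIII, stood apart most: it had 31.0 CPM (95% interval 12.4 to 63.8) and 72.4 CPM (44.2 to 112) in the Msln class but 1.14 and 1.15 CPM in the Pdgfra class. It was carried by 6 of 25 and 14 of 32 cells of the Msln class.

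**Figure D1:**
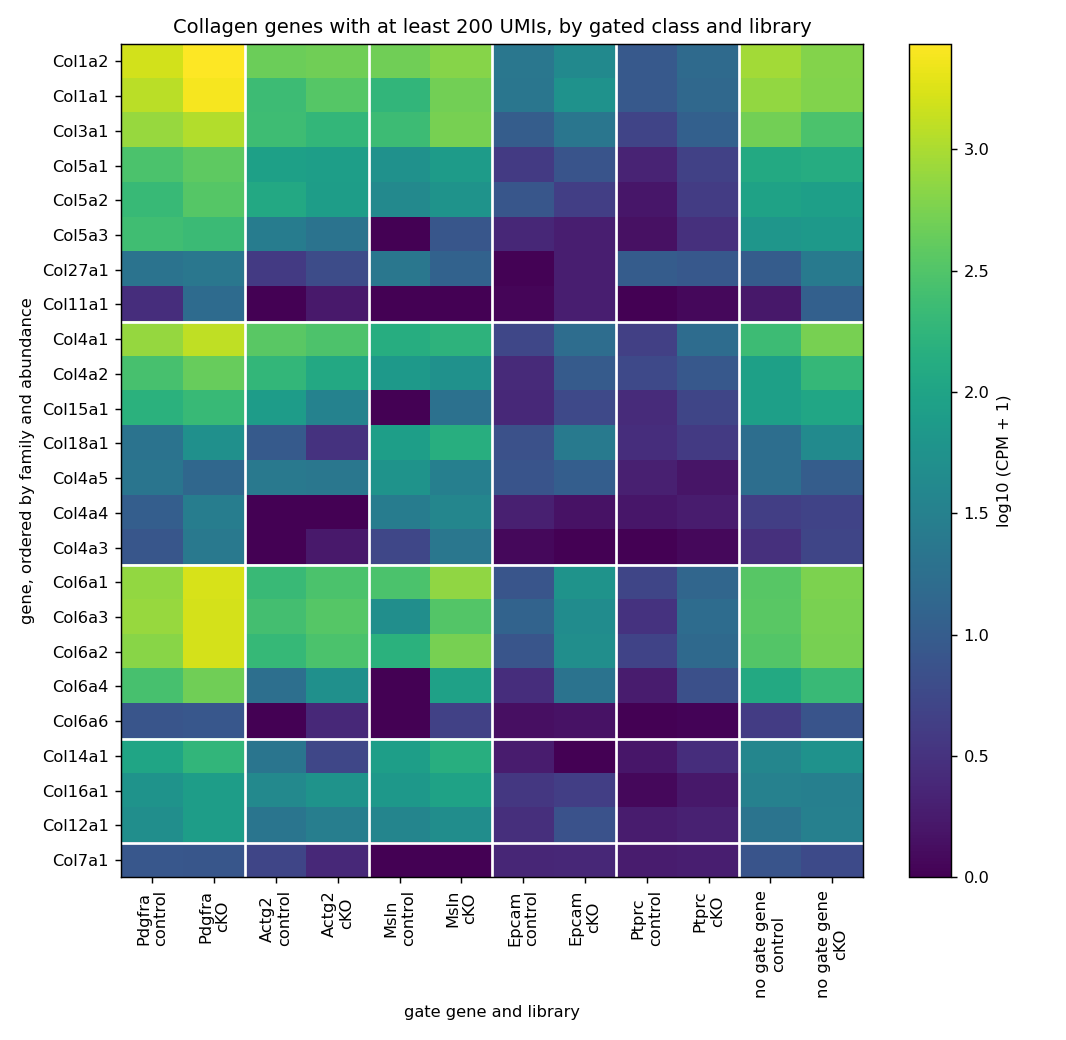
Heat map of the 24 collagen genes with at least 200 UMIs in the cells of either library. Rows are genes ordered by family, columns are the gated classes in control and cKO, and colour is log10 of CPM plus 1. The columns of the Pdgfra class are the brightest for most rows, while Col4a5 and Col18a1 are brighter in the Msln columns.

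Among the fibrillar members, Col1a2, Col1a1 and Col3a1 were the most abundant. Col1a1 and Col1a2 encode the chains of type I collagen, and Col3a1 encodes type III. In the Pdgfra class Col1a2 had 1589 CPM in the control and 2720 CPM in the cKO library, Col1a1 had 1200 and 2475 CPM, and Col3a1 had 802 and 1085 CPM. In pooled counts all 3 were higher in cKO, with ratios of 1.71 (1.68 to 1.75) for Col1a2, 2.06 (2.02 to 2.11) for Col1a1 and 1.35 (1.32 to 1.39) for Col3a1. With cells thinned to 1000 UMIs the log2 ratio of Col1a1 was 0.36 in place of 1.04. Col1a2 then had 1420 of 598000 UMIs in control and 3738 of 1398000 in cKO, a smaller rise. Col3a1 had 778 and 1453 of the same totals, so its level was then lower in cKO. In the pooled counts Col1a1 differed most, so the mix was not the same: there were 1.32 Col1a2 UMIs per Col1a1 UMI in control (1.29 to 1.36) and 1.10 in cKO (1.09 to 1.11), and 0.668 and 0.439 Col3a1 UMIs per Col1a1 UMI. The same direction held in the Actg2 class, where Col3a1 per Col1a1 was 1.06 (0.846 to 1.32) in control and 0.553 (0.473 to 0.646) in cKO.

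The minor fibrillar chains were less uniform. Col5a1, Col5a2 and Col5a3 encode type V collagen, which initiates and sizes type I fibrils. Col5a1 had 288 CPM in control against 386 CPM in cKO, and Col5a2 had 202 and 336 CPM, whereas Col5a3 had 240 CPM in the control and 216 CPM in the cKO library, a ratio of 0.90 (0.85 to 0.95). Col5a3 was thus the only abundant fibrillar chain with a lower pooled level in the cKO Pdgfra class. Col11a1, a chain of the type XI collagen best known from cartilage, had 14 UMIs in 10 of 608 control cells (1.78 CPM, 0.973 to 2.99) and 361 UMIs in 158 of 1409 cKO cells (14.9 CPM, 13.4 to 16.5). Its ratio of 8.36 (4.92 to 15.4) was the largest of all members in the Pdgfra class, and no single cell held more than 21.4% of its UMIs in control or 5.26% in cKO. At the same depth of 1000 UMIs per cell, 0.334% of control and 1.36% of cKO cells had a Col11a1 UMI, and the log2 ratio was 2.36 in place of 3.06, from 2 and 24 UMIs. The Ptprc class, which should lack the gene, had 0 Col11a1 UMIs in control, which allows up to 0.607 CPM at a limit of 3 counts, and 2 UMIs in cKO. In cells without a gate gene Col11a1 had 2 UMIs in control and 51 UMIs in cKO (0.680 and 10.3 CPM). Col27a1, a fibrillar chain best known from cartilage, was at 19.2 and 22.1 CPM in the Pdgfra class and was also found in the Ptprc class, at 8.90 and 7.92 CPM. Col11a2 and Col24a1 had at most 37 UMIs in the class in either library, and Col2a1 had 36 UMIs in the cells of both libraries together.

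The stretches of 250 bases upstream of the RefSeq start site are shown for 3 of these genes because they differed by unlike amounts in the same cells: Col1a2, Col3a1 and Col11a1, with ratios of 1.71, 1.35 and 8.36. The sequences are from RefSeq on GRCm38.p6, read 5-prime to 3-prime on the plus strand, on which all 3 genes lie, with matches to 3 motifs on either strand in capitals. The motifs are TATAAA (the TATA box), CCAAT (the CAAT box, which reads ATTGG on the other strand) and GGGCGG (the GC box, a site of the Sp1 kind). The windows are chr6:4505368-4505617 for Col1a2, chr1:45311288-45311537 for Col3a1 and chr3:114030290-114030539 for Col11a1. In GENCODE M21 the Col1a2 gene begins earlier, at base 4504814, so there its window lies inside the gene, while the other 2 windows end next to the first base of theirs.
Col1a2: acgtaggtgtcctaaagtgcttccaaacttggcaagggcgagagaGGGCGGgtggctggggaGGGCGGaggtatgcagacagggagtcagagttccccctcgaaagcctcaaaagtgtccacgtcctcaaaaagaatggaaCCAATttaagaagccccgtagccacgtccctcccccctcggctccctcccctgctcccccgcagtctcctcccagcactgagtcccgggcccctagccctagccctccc
Col3a1: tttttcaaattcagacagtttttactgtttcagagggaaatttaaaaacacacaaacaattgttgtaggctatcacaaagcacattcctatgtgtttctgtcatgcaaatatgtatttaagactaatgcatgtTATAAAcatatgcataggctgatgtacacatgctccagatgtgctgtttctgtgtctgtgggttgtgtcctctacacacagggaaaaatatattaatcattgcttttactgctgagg
Col11a1: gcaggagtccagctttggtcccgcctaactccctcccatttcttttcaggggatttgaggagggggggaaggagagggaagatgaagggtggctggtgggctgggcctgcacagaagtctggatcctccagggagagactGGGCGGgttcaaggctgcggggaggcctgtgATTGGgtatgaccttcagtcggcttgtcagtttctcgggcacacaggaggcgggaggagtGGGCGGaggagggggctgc
The Col1a2 and Col11a1 windows were rich in G and C (62.0% and 62.4%) and each held the GC box motif at 2 places and the CAAT box motif at 1. The Col3a1 window was 35.2% G and C and held the TATA box motif at 1 place. Over the 38 windows of the 35 members in the promoter table (searched over the 250 bases before the start), the TATA box motif occurred in 5 windows, the CAAT box motif in 13 and the GC box motif in 22. The shares of all 32851 windows with these letters were 12.4%, 33.8% and 32.7%. A match describes the letters of a window and not a bound site.

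Summed over the 11 fibrillar genes, the level in the Pdgfra class was 4346 CPM in control against 7257 CPM in cKO, a log2 ratio of 0.74. The 8 basement membrane genes together had 1269 CPM and 2043 CPM, a log2 ratio of 0.69. The fibrillar sum was the more fragile: with each cell thinned to 1000 UMIs, which lets shallow cells count as much as deep ones, its log2 ratio was 0.14, while that of the basement membrane sum was 0.55. The 6 type VI genes had 2495 CPM in the control and 5437 CPM in the cKO library, a ratio of 2.18 (2.15 to 2.21). The 9 fibril-associated genes had 215 and 345 CPM, a ratio of 1.60 (1.52 to 1.69). The 2 smallest sums went the other way, with 7.24 CPM in control against 3.50 CPM in cKO for the transmembrane collagens and 7.50 and 3.34 CPM for the short-chain collagens.

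Counted gene by gene in the Pdgfra class, 9 of the 35 members with at least 20 UMIs were at least 2-fold higher in cKO, against 5.57% of all 13283 genes tested, and 4 of 35 were at least 2-fold lower, against 6.78%. The median log2 ratio was 0.44 over the members and -0.03 over all genes. The 9 higher members were Col1a1, Col11a1, Col4a3, Col4a4, Col18a1, Col6a1, Col6a2, Col6a3 and Col6a5. The 4 lower members were Col8a1, Col13a1, Col23a1 and Col24a1, each with at most 52 UMIs in the class in either library. With cells thinned to 1000 UMIs, 24 members still had 20 UMIs, of which 3 were at least 2-fold higher (Col11a1, Col4a3 and Col4a4) and 0 at least 2-fold lower. No share of all genes was computed with thinned cells, so these counts have no background beside them. Col1a1, Col18a1, Col6a1, Col6a2 and Col6a3 were less than 2-fold higher when thinned. Col6a5 and the 4 lower members fell under the minimum and could not be counted, and Col8a1 had 9 thinned UMIs in control and 1 in cKO.

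**Figure D2:**
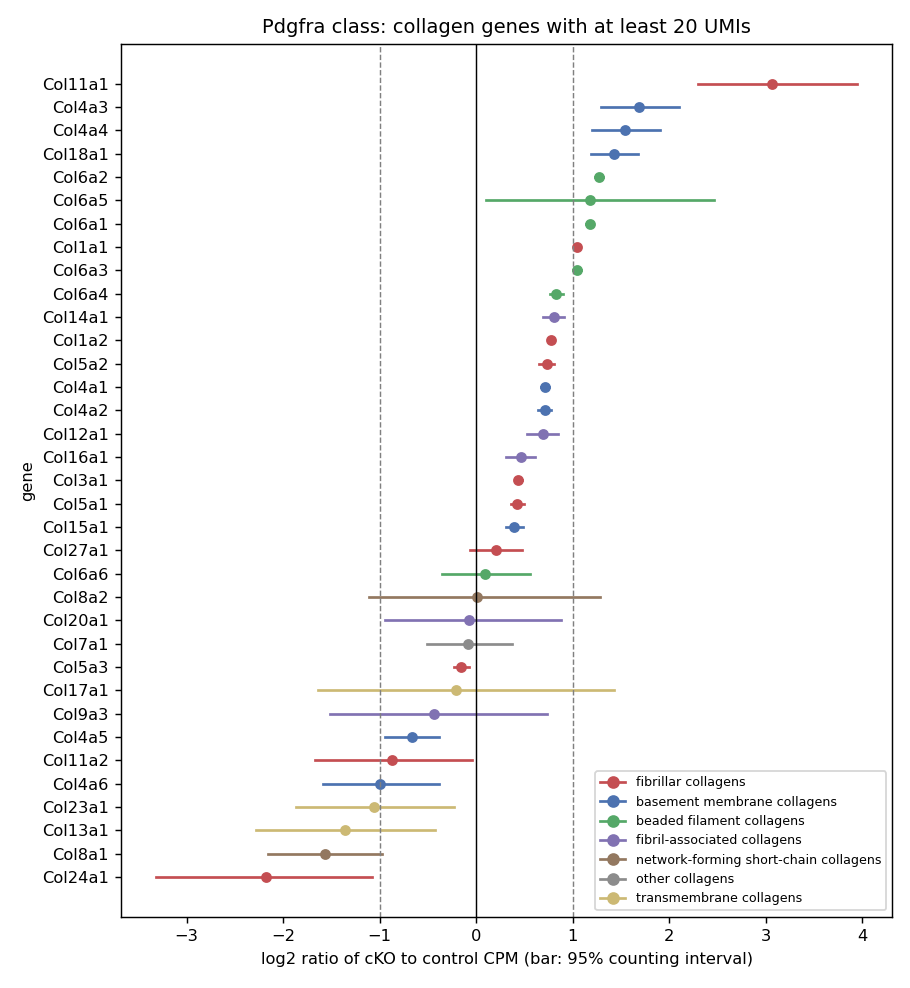
Log2 ratio of cKO to control CPM in the Pdgfra class for the 35 collagen genes with at least 20 UMIs, coloured by family. Points are pooled ratios and bars 95% counting intervals, with no replicates behind them. Col11a1 lies farthest to the right at 3.06, the 6 type VI genes are all to the right of 0, and Col24a1 and Col8a1 lie farthest to the left at -2.17 and -1.57.

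Among the basement membrane members, Col4a1 and Col4a2 encode the chains of the type IV network found in nearly all basement membranes. Col4a1 had 782 CPM in the control Pdgfra class and 1279 CPM in cKO, and Col4a2 had 268 and 438 CPM. Both were higher in cKO by the same ratio, 1.64 (1.59 to 1.68) for Col4a1 and 1.64 (1.56 to 1.71) for Col4a2. The proportion between the chains was therefore alike in the libraries: 2.92 Col4a1 UMIs per Col4a2 UMI in control (2.78 to 3.07) and 2.92 in cKO (2.86 to 2.99). In a type IV molecule of these chains, Col4a1 protein contributes a pair of chains and Col4a2 a single one. The Actg2 class had 1.88 (1.52 to 2.33) and 2.56 (2.13 to 3.10).

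The 6 type IV genes lie as head-to-head pairs that are transcribed away from each other. On GRCm38, Col4a1 (chr8:11198423-11312826, minus strand) and Col4a2 (chr8:11312805-11449287, plus strand) overlap by 22 bases at their starts in GENCODE M21. Col4a4 (chr1:82448423-82586849, minus strand) and Col4a3 (chr1:82586921-82722059, plus strand) are separated by 71 bases, and Col4a6 and Col4a5 on chromosome X by 1308 bases. The interval between Col4a4 and Col4a3, chr1:82586850-82586920, is shown because both partners were higher in cKO. It is written on the plus strand and had no match to any of the 3 motifs.
Col4a4 to Col4a3: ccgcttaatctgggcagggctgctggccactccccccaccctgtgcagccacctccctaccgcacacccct

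Col4a3 and Col4a4 encode chains of the type IV network known from kidney glomerulus, where they join the product of Col4a5. Col4a3 was counted 58 times in control and 576 times in cKO, at 7.37 CPM (5.60 to 9.53) and 23.7 CPM (21.8 to 25.8). Col4a4 had 75 and 675 UMIs, 9.53 CPM (7.50 to 11.9) and 27.8 CPM (25.8 to 30.0). Their ratios were 3.22 (2.45 to 4.29) and 2.92 (2.30 to 3.75), so the paired genes were higher in cKO by amounts whose intervals overlap. They were also carried by the same cells more often than by Pdgfra cells at large. Of 36 control cells with a Col4a3 UMI, 36.1% had a Col4a4 UMI, against 7.24% of all 608 cells, and of 260 such cKO cells 53.1% had one, against 19.7% of all 1409. The part of cell depth in this overlap was not tested. After thinning to 1000 UMIs per cell, 1.17% of control and 2.50% of cKO cells had a Col4a4 UMI. In the Ptprc class, before thinning and at lower depth, 0.451% and 0.589% of cells had one.

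The third pair went the other way. Col4a5 had 20.8 CPM (17.8 to 24.3) in control and 13.1 CPM (11.7 to 14.6) in cKO, a ratio of 0.63 (0.52 to 0.76), and Col4a6 had 5.08 CPM (3.63 to 6.92) and 2.55 CPM (1.96 to 3.27), a ratio of 0.50 (0.33 to 0.77). There were 4.10 (2.89 to 5.95) and 5.13 (3.90 to 6.85) Col4a5 UMIs per Col4a6 UMI, so the neighbours kept proportions with overlapping intervals. Col4a5 was found in every gated class and was lowest in the immune one. In control it had 6.90 CPM in the Epcam, 23.7 CPM in the Actg2 and 57.5 CPM in the Msln class, and in cKO 9.59, 22.2 and 29.0 CPM. The Ptprc class had 1.01 and 0.566 CPM.

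Col15a1 and Col18a1 encode the proteoglycan collagens of the basement membrane zone. Col15a1 had 157 CPM in the control Pdgfra class and 207 CPM in cKO, for a ratio of 1.31 (1.23 to 1.40). With cells thinned to 1000 UMIs it had 144 of 598000 UMIs in control and 299 of 1398000 in cKO, so it was then lower in cKO. Col18a1, whose C-terminal fragment is endostatin, had 19.4 CPM (16.5 to 22.8) and 52.3 CPM (49.5 to 55.3), a ratio of 2.69 (2.27 to 3.20), or a log2 ratio of 1.43 that was 0.85 with cells thinned to 1000 UMIs. Col18a1 also had a higher level in epithelial than in immune cells: 6.1 CPM in the control and 24.5 CPM in the cKO library in the Epcam class, against 1.82 and 2.83 CPM in the Ptprc class. In the 59 cKO Epcam cells that level came from 51 UMIs in 20 cells.

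The 6 type VI genes all had higher pooled levels in the cKO Pdgfra class. The counting interval spans 1 for Col6a6 (ratio 1.07, 0.785 to 1.47) but not for the other 5. With cells thinned to 1000 UMIs, Col6a6 was lower in cKO, from 8 of 598000 UMIs in control and 13 of 1398000 in cKO. Col6a1, Col6a2 and Col6a3 encode the chains of the common type VI molecule, in which each occurs once. Col6a1 had 754 CPM in the control Pdgfra class and 1700 CPM in cKO, Col6a2 had 667 and 1609 CPM, and Col6a3 had 792 and 1630 CPM. The ratios were 2.26 (2.20 to 2.32), 2.41 (2.34 to 2.48) and 2.06 (2.00 to 2.12). With cells thinned to 1000 UMIs the log2 ratios were 0.75, 0.75 and 0.65 in place of 1.17, 1.27 and 1.04, so none of the 3 was then 2-fold higher. The chains stayed close to equal numbers in both libraries, with 0.885 and 0.946 Col6a2 UMIs and 1.05 and 0.959 Col6a3 UMIs per Col6a1 UMI. In the Msln class Col6a3 was scarce beside its partners, at 0.169 per Col6a1 UMI in control (0.081 to 0.323) and 0.453 in cKO (0.349 to 0.583).

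Col6a4, Col6a5 and Col6a6 encode chains that can stand in for the Col6a3 product, and they lie beside each other on chromosome 9, with Col6a4 at chr9:105989454-106096783 on the minus strand. Col6a4 was the one with a high level, 274 CPM in control against 488 CPM in cKO (ratio 1.78, 1.70 to 1.86). Col6a5 had 8 and 56 UMIs in the Pdgfra class and Col6a6 had 55 and 181 UMIs. Reads shared between near-identical stretches of these related genes could have been lost or split in the deposited counts. There was 0.347 of a Col6a4 UMI per Col6a3 UMI in the control Pdgfra class (0.330 to 0.364) and 0.299 in cKO (0.293 to 0.306), but 0.066 (0.033 to 0.118) and 0.156 (0.119 to 0.201) in the Actg2 class, so muscle-gated cells carried less of the alternative chain.

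The fibril-associated members were led by Col14a1, Col12a1 and Col16a1. Col14a1 had 104 CPM in the control Pdgfra class and 182 CPM in cKO (ratio 1.74, 1.62 to 1.88), and Col12a1 had 49.4 and 79.6 CPM (ratio 1.61, 1.44 to 1.80). Col16a1 had 57.7 and 79.5 CPM (ratio 1.38, 1.24 to 1.53) and was the most widely spread of them, with 40.4 and 56.4 CPM in the Actg2 class and 66.4 and 94.1 CPM in the Msln class. Of the others, Col9a1, Col9a2, Col19a1 and Col22a1 had at most 10 UMIs in the cells of a library.

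The remaining members were rare in the Pdgfra class. Col7a1, which forms the anchoring fibrils of skin, had 7.63 CPM in the control and 7.21 CPM in the cKO library. Col8a1, a chain of the short-chain collagen VIII, had 50 UMIs in 11 control cells (6.36 CPM, 4.72 to 8.38) and 52 UMIs in 33 cKO cells (2.14 CPM, 1.60 to 2.81), a ratio of 0.34 (0.22 to 0.51). One control cell held 42.0% of those UMIs, and without the cell with most UMIs in each library the log2 ratio was -0.93 in place of -1.57. Thinned to 1000 UMIs per cell it was -4.40, from the 9 and 1 UMIs given above. Col13a1, Col23a1 and Col25a1, of the transmembrane group, had 61, 180 and 20 UMIs in all cKO cells.

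Col23a1 was found mainly outside the gates. Among cells with no gate gene, 18 in control and 32 in cKO carried a UMI of Mmrn1, a marker of lymphatic endothelium, and their 5 lymphatic markers summed to 12287 and 13590 CPM. In these cells Col23a1 had 59 UMIs in control, 216 CPM (164 to 278), and in cKO 94 UMIs, or 107 CPM (86.5 to 131). The other cells without a gate gene had 0.375 and 2.22 CPM. Basement membrane genes summed to 910 and 667 CPM in the Mmrn1 cells, against 14.6 and 29.6 CPM for fibrillar genes. Col4a1 had 589 and 432 CPM, Col4a2 267 and 155 CPM and Col18a1 51.2 and 77.4 CPM there, while Col1a1 had 0 and 2 UMIs. This split was chosen after Col23a1 values were seen.

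Fibrillar and basement membrane sums were compared within each class. In the Pdgfra class there were 3.43 fibrillar UMIs per basement membrane UMI in control (3.35 to 3.50) and 3.55 in cKO (3.52 to 3.59). The Actg2 class had 1.76 (1.57 to 1.98) and 2.56 (2.33 to 2.81), the lowest ratio of the 5 gated classes in control. The difference between muscle and stroma depended on the gate: with cells admitted whatever other gate genes they carried, the log2 ratio in the Actg2 class was 1.93 in control and 1.85 in cKO, in place of 0.82 and 1.36, beside 1.83 and 1.84 for the Pdgfra class under the same gate. The stromal balance moved with thinning to 1000 UMIs per cell: the log2 ratio in the Pdgfra class was then 2.29 in control and 1.88 in cKO. Pooled, it was 1.78 and 1.83. Without these changes the Msln class had 2.67 and 3.87 fibrillar UMIs per basement membrane UMI. The Epcam class had 3.09 and 2.06 and the Ptprc class 2.63 and 1.81, and cell-free RNA had 3.98 and 3.37. Cells without a gate gene had 5.65 (5.32 to 6.00) in control and 2.08 (2.01 to 2.16) in cKO. The makeup of that mixed group differed between the libraries: epithelial markers summed to 2617 CPM in control and 113 CPM in cKO, red cell markers to 702 and 272 CPM, lymphatic endothelial markers to 1162 and 2446 CPM, blood endothelial markers to 277 and 583 CPM, muscle markers to 681 and 1214 CPM and stromal markers to 2327 and 3152 CPM. Their part in the shift was not tested. In this group 7 of 29 members were at least 2-fold higher in cKO, against 7.12% of all genes, and 0 were at least 2-fold lower, against 12.0%. Col4a1 was at 224 CPM in control against 530 CPM in cKO and Col3a1 at 510 and 284 CPM.

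**Figure D3:**
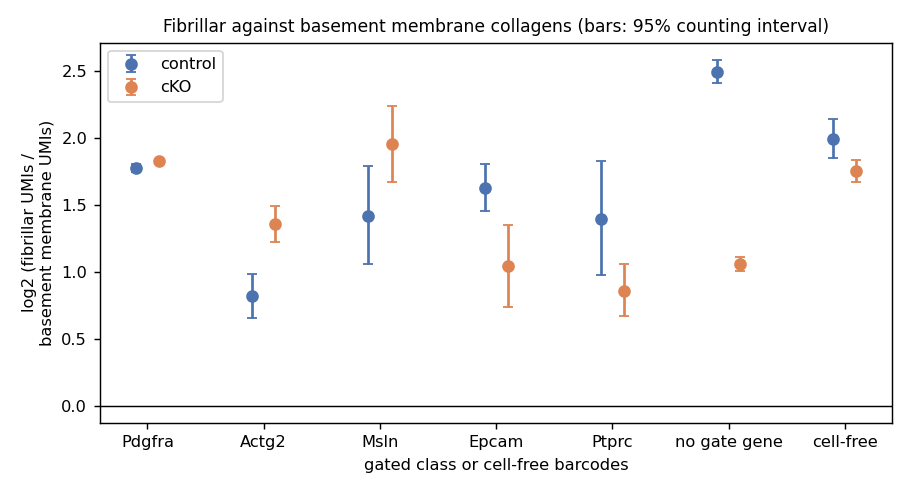
Log2 of the number of fibrillar UMIs over basement membrane UMIs for each gated class, for cells without a gate gene and for cell-free RNA, in control and cKO. Bars are 95% counting intervals. All points lie above 0, the Pdgfra points nearly coincide at 1.78 and 1.83, the Actg2 points are at 0.82 and 1.36, and the widest gap is that of the cells without a gate gene, 2.50 against 1.06.

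The Actg2 class held few collagen UMIs, 1868 in control and 3696 in cKO. Fibrillar genes had 1163 CPM in the control and 1209 CPM in the cKO library, a ratio of 1.04 (0.956 to 1.13), and basement membrane genes had 660 and 472 CPM, a ratio of 0.716 (0.634 to 0.808). Type VI genes had 680 and 962 CPM, a ratio of 1.42 (1.27 to 1.57). At least 2-fold higher in cKO was 1 of 17 members, against 5.44% of all genes, and 2 of 17 were at least 2-fold lower, against 4.41%. Both sums moved with the gate and the depth. The log2 ratio of the fibrillar sum was 0.06, but 0.90 when cells with other gate genes were admitted, 0.79 with at least 2 Actg2 UMIs and -0.76 with cells thinned to 1000 UMIs. That of the basement membrane sum was -0.48, but 0.98, -0.092 and -0.24 under the same changes. The members with lower levels in cKO and enough UMIs to be named were Col15a1 (79.4 and 31.9 CPM), Col4a2 (189 and 116 CPM), Col5a2 (118 and 80.1 CPM), Col3a1 (235 and 188 CPM) and Col4a1 (355 and 297 CPM). For each of these 5 the ratio was above 1 when cells with other gate genes were admitted. No higher member met the naming rule, which also required the CPM of cell-free RNA in the library with more. That RNA held 1408 CPM of collagen transcripts in control and 5131 CPM in cKO. Of members with at least 20 UMIs, ratios were above 1 in 4 of 4 type VI, 2 of 6 fibrillar, 2 of 3 fibril-associated and 0 of 4 basement membrane genes. Single cells also weighed here: 1 control cell held 26.7% of the Col4a1 UMIs and 31.6% of the Col4a2 UMIs, and without the cell with most UMIs in each library the log2 ratio of Col4a1 was 0.06 in place of -0.26. Red cell markers summed to 52.9 CPM in the control class and 1391 CPM in cKO. Other lists were lower in cKO: epithelial markers summed to 249 and 21.5 CPM in this class, blood endothelial markers to 143 and 16.3 CPM, immune markers to 84.9 and 17.1 CPM and pericyte markers to 97.5 and 57.1 CPM. The part of these cells in the class's collagen levels was not tested.

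In the Msln class 7 of 17 members were at least 2-fold higher in cKO, against 10.6% of all genes, and 0 were at least 2-fold lower, against 4.11%. Col6a1 had 288 and 728 CPM, Col6a2 had 155 and 539 CPM and Col3a1 had 226 and 529 CPM, with ratios of 2.53 (1.90 to 3.40), 3.48 (2.40 to 5.19) and 2.34 (1.69 to 3.29). Without the cell with most UMIs in each library the log2 ratio of Col3a1 was 0.69 in place of 1.23, and it was 0.19 with the inclusive gate. Thinned to 1000 UMIs per cell, Col3a1 had a log2 ratio of 0.37, Col6a1 0.57 in place of 1.34 and Col6a2 2.95 in place of 1.80, each from at most 25 UMIs in a library. The cKO cells also held 688 CPM of lymphatic endothelial markers, which were at 0 in control, and 224 CPM of blood endothelial markers against 31.0 CPM, and their part was not tested.

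In the Epcam class 12 of 20 members were at least 2-fold higher in cKO, against 22.7% of all genes, and 3 were at least 2-fold lower, against 11.5%. Fibrillar genes had 66.9 CPM in control against 132 CPM in cKO (ratio 1.98, 1.73 to 2.26) and basement membrane genes had 21.6 and 64.3 CPM (ratio 2.97, 2.42 to 3.64). Few cells carried them. In control 1 cell held 80.1% of the Col1a1 UMIs, 70.8% of the Col1a2 UMIs and 61.3% of the Col3a1 UMIs, and 60.4% of the 921 cells had no collagen UMI at all. With at least 2 Epcam UMIs asked for, the log2 ratio of the fibrillar sum was -0.31 in place of 0.99. It was 0.28 with cell-free RNA subtracted, 2.42 with cells thinned to 1000 UMIs and 2.80 when cells with other gate genes were admitted. That of the basement membrane sum was 1.57 and lay between 1.11 and 2.27 under the alternatives run. Markers of other cells were higher in the cKO Epcam class, with 52.9 and 648 CPM for the muscle list, 9.11 and 261 CPM for the lymphatic endothelial list, 4.50 and 62.4 CPM for the blood endothelial list and 45.5 and 112 CPM for the stromal list, and their part was not tested. In the Ptprc class 12 of 21 members were at least 2-fold higher, against 11.8% of all genes, and 0 were at least 2-fold lower, against 7.44%, at a summed level near that estimated for cell-free RNA. There, 80.0% of control and 71.2% of cKO cells had no collagen UMI.

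Within the Pdgfra class, collagen was spread unevenly over cells. Collagen genes made up a median of 0.494% of a cell's UMIs in control and 1.24% in cKO, and the lower and upper quartiles were 0.239% and 1.17% in control and 0.661% and 1.95% in cKO. At the upper end the order turned: the highest cell had 17.6% in control and 8.99% in cKO, and cells above 5% were 27 of 608 (4.44%, 2.95 to 6.40) in control and 16 of 1409 (1.14%, 0.650 to 1.84) in cKO. Those cells were shallow in control, with a median of 4842 UMIs, and not in cKO, with 14693.5. They held 15.2% of the collagen UMIs of the control class and 3.56% of those of the cKO class. Without them collagen made up 0.721% of all UMIs of the class in control and 1.47% in cKO, compared with 0.835% and 1.51% with them.

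Depth separated the libraries further. Control cells under 5000 UMIs had a median collagen share of 1.15% and the 3 deeper ranges (5000 to 10000, 10000 to 20000, and 20000 or more UMIs) 0.440%, 0.390% and 0.427%. In cKO the medians were 0.936%, 1.18%, 1.22% and 1.37%. The cKO median was thus higher in the 3 deeper ranges and lower in the shallowest. From the shallowest range to the deepest, fibrillar genes had 11969, 6820, 2496 and 4697 CPM in control and 6506, 7012, 7050 and 7458 CPM in cKO. The libraries were thus close at 5000 to 10000 UMIs, control was higher below that range and cKO was higher above it. Basement membrane genes had 1337, 1297, 1250 and 1273 CPM in control and 1401, 1752, 2065 and 2087 CPM in cKO, so the libraries were close in the shallowest cells and farther apart in the 3 deeper ranges.

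**Figure D4:**
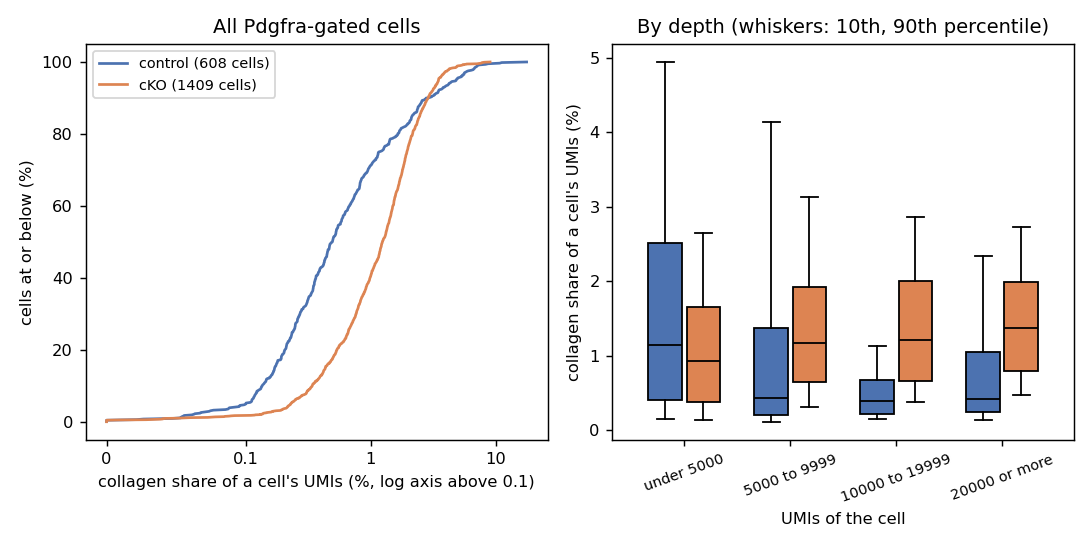
Left, cumulative share of Pdgfra-class cells (percent) against the collagen share of a cell's UMIs (percent, log axis above 0.1) for 608 control and 1409 cKO cells. Right, the same share by the depth of the cell, with the line at the median, the box at the quartiles and whiskers at the 10th and 90th percentiles of cells. The cKO curve lies to the right of control at the median (1.24% against 0.494%), and control cells are higher than cKO cells only in the range under 5000 UMIs.

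Stromal cells were then divided by 5 genes that mark different fibroblasts in these libraries, taking cells that carried exactly 1 of them. The genes were chosen with earlier results of these data known. Cells with Hsd11b2, which encodes a glucocorticoid-inactivating enzyme, had the most fibrillar collagen in control, 9102 CPM in 40 cells, and 6231 CPM in 283 cKO cells, a ratio of 0.685 (0.664 to 0.706). That is a pooled level: the median collagen share of a cell in this group was 1.09% in control and 1.31% in cKO, the reverse order of the pooled shares of 1.64% and 1.39%. These cells were 6.58% of the control and 20.1% of the cKO Pdgfra class. The pooled fibrillar level of the other 4 groups was higher in cKO. Cells with Cilp, a matrix protein, had 5213 CPM in 74 control cells and 7509 CPM in 179 cKO cells. Cells with Scara5, a ferritin receptor, had 1663 CPM in 40 and 9244 CPM in 25 cells. Cells with Cxcl5, a chemokine, had 984 CPM in 29 and 7297 CPM in 72 cells, and cells with Cyp26b1, a retinoic acid-degrading enzyme, 3400 CPM in 15 and 7108 CPM in 37 cells. The 5 groups lay between 984 and 9102 CPM in control but between 6231 and 9244 CPM in cKO.

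Basement membrane genes varied less over the same groups. They had 872 CPM in the control and 1966 CPM in the cKO library in Scara5 cells, 1445 and 2209 CPM in Cilp cells, 1344 and 1780 CPM in Hsd11b2 cells, 1065 and 2521 CPM in Cxcl5 cells, and 1950 and 1959 CPM in Cyp26b1 cells. None of the 5 pairs was lower in cKO. Of the single genes, Col3a1 had 1875 CPM in control Hsd11b2 cells and between 207 and 942 CPM in the other control groups. Col6a4 was likewise highest in that group in control, at 864 CPM. In cKO, Cyp26b1 cells had the highest levels of Col11a1, 37.3 CPM from 23 UMIs, and of Col18a1, 170 CPM. Of the 50 Col8a1 UMIs of the control Pdgfra class, 21 were in Cyp26b1 cells. As given above, a single control cell held a large part of those 50 UMIs. Whether that cell carried Cyp26b1 was not examined, so the count may rest on it.

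**Figure D5:**
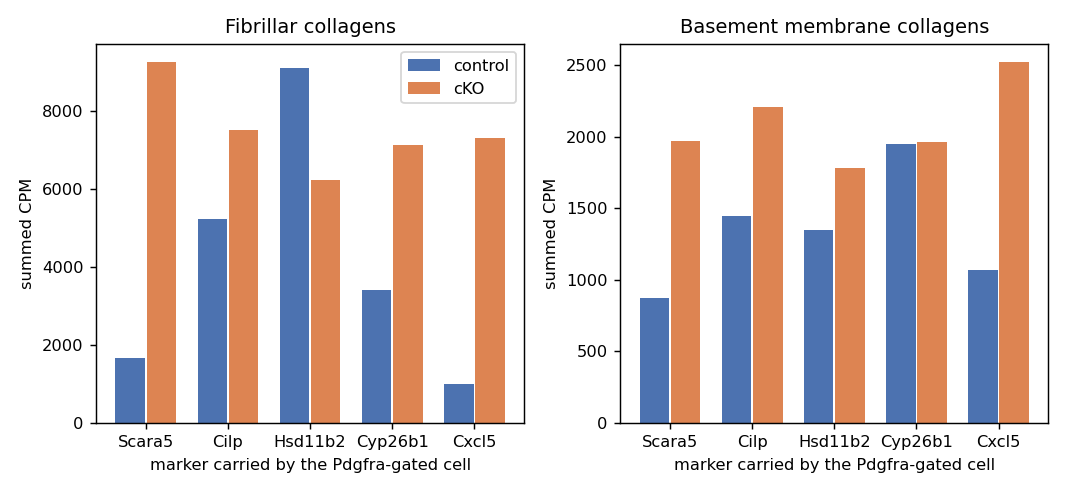
Summed CPM of fibrillar (left) and basement membrane (right) collagens in Pdgfra-class cells that carry 1 of 5 marker genes, as bars from 0 for control and cKO, 1 library each and no error over mice. Control bars for fibrillar collagens run from 984 CPM in Cxcl5 cells to 9102 CPM in Hsd11b2 cells, the only marker whose cKO bar is shorter, while all cKO bars reach at least 6231 CPM.

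Genes that make and bind collagen were read in the Pdgfra class from 4 lists. Their values are pooled, and none of the alternatives, thinning among them, was run on these lists. Of the enzymes and chaperones of collagen synthesis, 30 of 31 had at least 20 UMIs, 4 were at least 2-fold higher in cKO and 0 at least 2-fold lower, and 23 had a ratio above 1 and 7 below (median log2 ratio 0.37). Over all genes tested in this class the shares were 5.57% higher and 6.78% lower, with a median of -0.03. Serpinh1, the collagen chaperone HSP47, had 1063 CPM in control against 2357 CPM in cKO, for a ratio of 2.22 (2.17 to 2.27). Plod1, a lysyl hydroxylase, had 63.2 and 139 CPM, P3h1, a prolyl 3-hydroxylase, 16.8 and 34.0 CPM, and Lox, a lysyl oxidase that cross-links fibrils, 245 and 443 CPM. On the other side, Pcolce2, an enhancer of procollagen cleavage, had 79.4 and 54.2 CPM, Loxl1 had 219 and 187 CPM, Pcolce 53.6 and 44.1 CPM and P3h3 33.0 and 27.4 CPM.

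The proteoglycans and partners of fibrils were divided. Of 14 with at least 20 UMIs, 0 were at least 2-fold higher and 3 at least 2-fold lower in cKO, against 5.57% and 6.78% of all genes, with 7 ratios above and 7 below 1 (median log2 ratio -0.14). Of the small leucine-rich proteoglycans, which coat fibrils, Dcn had 5908 CPM in the control and 4369 CPM in the cKO library, Lum 1749 and 1162 CPM, Aspn 46.0 and 21.3 CPM and Prelp 54.3 and 16.9 CPM. Bgn, of the same family, had 276 and 298 CPM. The elastic fibre genes Fbn1 (141 and 237 CPM) and Eln (179 and 295 CPM), the adhesion glycoprotein Fn1 (250 and 378 CPM) and Sparc (1521 and 2037 CPM), which binds collagen, were higher in cKO.

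Of the collagen receptors, 8 of 10 had at least 20 UMIs, with 1 at least 2-fold higher, Itga1, and 1 at least 2-fold lower, Itga11 (median log2 ratio -0.12), where 5.57% of all genes were higher and 6.78% lower by that much. Itgb1, the integrin chain that they share, had 990 CPM in control against 653 CPM in cKO, and Itga11 had 7.63 and 3.42 CPM. Ddr2, a receptor tyrosine kinase for fibrillar collagen, was level at 398 and 390 CPM. Of the partners of type IV collagen in basement membranes, 15 of 17 had at least 20 UMIs, 1 was at least 2-fold higher (Lamc3) and 1 at least 2-fold lower (Lama3), and the median log2 ratio was 0.11. With 1 gene on each side, this count too stands beside shares of 5.57% and 6.78% over all genes. The laminin genes Lama4 (31.1 and 46.6 CPM) and Lamb1 (113 and 149 CPM), the linker Nid1 (393 and 491 CPM) and Pxdn (133 and 168 CPM), the peroxidase that cross-links type IV collagen, had higher values in cKO.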

How the data were processed

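Values were raw UMI counts per gene and barcode, deposited unfiltered by the authors, from 1 library per group. Per the file headers the matrices are in Cell Ranger 4 format, while the submitters' processing notes name Cell Ranger 6.1.1 and the build mm10 (GRCm38). The annotation release is not given in the sources used here. The control library listed 1214689 barcodes and the cKO library 1359477. Cells were barcodes with at least 500 genes and at most 20% mitochondrial UMIs, a limit that removed 283 control and 46 cKO barcodes. Cells held 83.7% and 92.6% of all UMIs.

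Counts were summed per gate class and library with scanpy 1.11.5 and scipy 1.17.1 and divided by the class total to give CPM. Intervals at 95% are exact Poisson for CPM, exact conditional binomial for ratios and Clopper-Pearson for shares of cells, and all cover counting error only. Counts of members at least 2-fold apart used a pseudocount of 0.5 UMI and genes with at least 20 UMIs over both libraries. Cells with more than 1 gate gene were left out. A doublet score (Scrublet method) above 0.25 marked 42 control (1.15%) and 60 cKO (1.21%) cells, which were removed only in an alternative. Cell-free RNA was taken from barcodes with at most 100 UMIs. Shares after thinning used 1000 UMIs per cell.

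Levels are given for members with at least 200 UMIs in either library, and cKO against control for members that reached 50 UMIs and the CPM of cell-free RNA in whichever library had more, at most 8 in each direction per class and 4 per pathway list. Other genes named, among them those counted in a list, were chosen after their values were seen. Members and lists were chosen with earlier results of these data known. Alternatives were other gates, at least 1000 genes, thinning, cell-free RNA subtracted, TMM scaling (edgeR 4.0.16 in R 4.3.3), doublets removed and type IV alone. The ratio calculation was tested on simulated counts.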

Additional observations from a re-analysis of the deposited data

Results flagged for a closer look

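In 5 members the pooled difference between cKO and control pointed in opposite directions in stromal and muscle cells. The Pdgfra class was higher and the Actg2 class lower in cKO. The gap between the log2 ratios of these classes was 0.76 for Col3a1, 1.29 for Col5a2, 1.71 for Col15a1, 0.97 for Col4a1 and 1.42 for Col4a2. For Col3a1 the gap between the Msln and Actg2 classes was 1.55. With 1 library per group these differences between classes were not tested. With cells thinned to 1000 UMIs, Col3a1 and Col15a1 were lower in cKO in the Pdgfra class as well. They had 778 and 144 of 598000 UMIs there in control and 1453 and 299 of 1398000 in cKO. Their thinned Actg2 log2 ratios were -1.43 and -1.40, so both classes then pointed the same way. All 5 had ratios above 1 in the Actg2 class when cells with other gate genes were admitted. With at least 2 Actg2 UMIs the Actg2 log2 ratio also turned, to 0.46 for Col3a1 and 0.0026 for Col4a1, as it did to 0.29 for Col4a2 with cells thinned to 1000 UMIs and to 0.064 for Col4a1 without the cell with most UMIs in each library.

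Fibrillar collagen in stromal cells with Hsd11b2 was lower in cKO, and in the cells with each other marker it was higher, in pooled levels. The median collagen share of an Hsd11b2 cell was 1.09% in control and 1.31% in cKO, the opposite order, and these cells were 6.58% of the control and 20.1% of the cKO Pdgfra class. The log2 ratio exceeded that of the Hsd11b2 cells by 1.07 in Cilp cells, 3.44 in Cxcl5 cells, 1.61 in Cyp26b1 cells and 3.02 in Scara5 cells. These differences were not tested either. The smallest control groups were 15 Cyp26b1 cells and 29 Cxcl5 cells.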

How the results depend on the processing

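No paired analysis was possible because each group was 1 library. Values here are log2 ratios of cKO to control unless said otherwise. In the Pdgfra class the fibrillar sum was 0.74 as reported, 1.03 with at least 2 UMIs of the gate gene, 0.78 with at least 1000 genes per cell, 0.14 with cells thinned to 1000 UMIs and 0.82 under TMM scaling. The basement membrane sum there was 0.69, and 0.73 with the inclusive gate, 0.73 with the 2-UMI gate, 0.55 thinned and 0.77 under TMM. Both kept their direction under every alternative run. In the Actg2 class the fibrillar sum was 0.06, and 0.90 with the inclusive gate, 0.79 with the 2-UMI gate, 0.21 with 1000 genes and -0.76 thinned. The basement membrane sum was -0.48, reversed to 0.98 with the inclusive gate, and was -0.092 with the 2-UMI gate and -0.24 thinned. In the Epcam class the fibrillar sum was 0.99, reversed to -0.31 with the 2-UMI gate, and was 2.80 inclusive, 2.42 thinned, 0.28 with cell-free RNA subtracted and 0.52 under TMM. The basement membrane sum was 1.57, and 2.27 inclusive, 1.23 with the 2-UMI gate, 2.17 thinned and 1.11 under TMM. TMM moved all genes of the Epcam, Ptprc and Msln classes by 0.46, 0.26 and 0.21. For the members of the Pdgfra class, thinning gave 3 at least 2-fold higher and 0 lower of the 24 that still had 20 UMIs. The 4 lower members did not have 20. A minimum of 50 UMIs gave 2 lower and a minimum of 1 UMI gave 7 lower. No share of all genes was computed under these alternatives.

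The log2 ratio of fibrillar to basement membrane UMIs, whose alternatives were chosen after seeing the data, was 1.78 in the control Pdgfra class and ran over 1.99 with type IV alone, 1.83 inclusive, 1.53 with the 2-UMI gate, 1.74 with 1000 genes and 2.29 thinned. In the cKO class it was 1.83, and 2.02 with type IV alone and 1.88 thinned. In the control Actg2 class it was 0.82, and 1.02, 1.93, 0.63 and 1.11 with type IV alone, the inclusive gate, the 2-UMI gate and thinning. In the cKO Actg2 class it was 1.36, and 1.85, 1.51, 1.55 and 0.60 with the inclusive gate, the 2-UMI gate, 1000 genes and thinning. The order of muscle and stroma in control was turned by the inclusive gate.

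Of 152 values of single named members under alternatives, 110 stayed within their counting interval and 33 moved beyond it in the same direction. The other 9 reversed, all in the Actg2 class. The inclusive gate gave 0.44 for Col15a1, 0.077 for Col3a1, 1.17 for Col4a1, 0.74 for Col4a2 and 0.77 for Col5a2. The 2-UMI gate gave 0.46 for Col3a1 and 0.0026 for Col4a1, thinning gave 0.29 for Col4a2, and leaving out the cell with most UMIs gave 0.064 for Col4a1. Members not named in a class were outside these 152 values. Of those with at least 20 thinned UMIs, Col3a1, Col15a1 and Col6a6 turned to a lower level in cKO in the Pdgfra class. Their thinned UMIs were 778, 144 and 8 of 598000 in control and 1453, 299 and 13 of 1398000 in cKO. The cause of these shifts was not tested. Few cells limit the Msln class, with 25 and 32, and the cKO Epcam class, with 59. Depth limits the Actg2 class, with medians of 1499 and 1495 UMIs.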
